A study of Mus musculus with 6 samples.

Results

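MicroRNA genes made up 127 of the 33924 gene symbols in a total RNA profile of mouse retinal pigment epithelium and choroid (RPE/choroid). They were chosen by name and by measured value. The 127 were all symbols of the form Mir or Mirlet followed by a digit, host gene names ending in hg left out, whose baseMean was at least 2. The baseMean is the authors' mean, over all 6 libraries, of a gene's normalized read count. The table held 529 microRNA symbols in all, so 24.0% reached the minimum, 198 lay above 0 and below it, and 204 (38.6%) were listed at 0.

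The tissue came from C57BL/6J mice, 3 young (1 to 2 months by the labels) and 3 aged (20 to 24 months by the titles, 22 to 24 by the time label), all labelled male, with no treatment and no transgene in either group. The pigmented layer was scraped from the sclera after the anterior eye, muscle, optic nerve and neural retina had been cut away, and RNA was sequenced after ribosomal RNA removal without poly(A) selection. A single pooled value per gene was used here, so the values carry no replicate error, the depth of each library is unknown, and young and aged mice were not compared. Every level below describes young and aged tissue together. Because this is bulk tissue, fewer cells of a type and less RNA per cell cannot be told apart.

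MicroRNAs are short RNAs that guide Argonaute proteins to partly complementary messenger RNAs, which are then silenced. Each is cut from a hairpin inside a longer primary transcript, first by Drosha and Dgcr8 in the nucleus and then by Dicer in the cytoplasm, and the bases 2 to 8 of the mature strand, the seed, do most of the target pairing. In pigment epithelium the related miR-204 and miR-211, made from introns of the cation channel genes Trpm3 and Trpm1, are known for their role in keeping the epithelial and pigmented state. Reads of a total RNA library that fall on a microRNA gene come from the hairpin or from the primary transcript around it. The levels below are therefore levels of reads assigned to hairpin genes, and amounts of mature microRNA were not measured.

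The reference sequences of some of the microRNA genes described below are given here. The first set gives the hairpins of Mir204 and Mir211, the pair best known from this epithelium, with both mature arms in capitals, from RefSeq (GRCm38.p6, given 5′ to 3′ as RNA). Mir204 lies at chr19:22750605-22750672 on the plus strand in an intron of Trpm3, and Mir211 at chr7:64205806-64205911 on the plus strand in an intron of Trpm1.
Mir204: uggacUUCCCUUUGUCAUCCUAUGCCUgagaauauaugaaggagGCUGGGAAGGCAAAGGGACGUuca
Mir211: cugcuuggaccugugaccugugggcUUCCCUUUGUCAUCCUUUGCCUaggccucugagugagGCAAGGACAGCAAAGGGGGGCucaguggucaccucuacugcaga

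The mature 5p arms of the pair are shown with the seed in capitals, because they are nearly the same molecule. They shared 21 of 22 bases and the seed UCCCUUU, and their single difference was A17U, counted from 1 at the 5′ end with the base of miR-204-5p first.
miR-204-5p: uUCCCUUUgucauccuaugccu
miR-211-5p: uUCCCUUUgucauccuuugccu

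The let-7 family, which restrains proliferation and marks differentiated cells, is shown because 8 members carried a single seed, the largest seed group in the set. Seeds are in capitals.
let-7d-5p: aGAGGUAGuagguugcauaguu
let-7c-5p: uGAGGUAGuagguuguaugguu
let-7a-5p: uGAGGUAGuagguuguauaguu
let-7b-5p: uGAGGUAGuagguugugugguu
let-7i-5p: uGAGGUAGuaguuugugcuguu
let-7g-5p: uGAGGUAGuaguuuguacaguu
miR-98-5p: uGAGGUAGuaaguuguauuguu

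The remaining sequences belong to some of the other genes described below, Mir27b and its paralogue Mir27a, Mir99a, Mir155 and the genes that share the miR-30 seed, with seeds in capitals. MiR-27b-3p and miR-27a-3p come from clusters on different chromosomes, and miR-30a-5p, miR-30e-5p and miR-30c-5p share the seed GUAAACA with miR-384-5p.
miR-27b-3p: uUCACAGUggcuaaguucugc
miR-27a-3p: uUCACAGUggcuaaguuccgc
miR-99a-5p: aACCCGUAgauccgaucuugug
miR-30a-5p: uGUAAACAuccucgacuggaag
miR-30e-5p: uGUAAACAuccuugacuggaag
miR-30c-5p: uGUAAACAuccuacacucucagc
miR-384-5p: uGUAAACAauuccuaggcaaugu
miR-155-5p: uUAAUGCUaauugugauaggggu

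MicroRNA genes were a small and low part of the profile. The 127 members summed to a baseMean of 1152, which is 0.00600% of the summed baseMean of all genes. Their median baseMean was 4.54, with quartiles of 2.94 and 9.66, against a median of 82.1 over the 26681 genes of the table above 0. The highest member lay 35.9 times above the lowest, and 48.9% of the genes above 0 lay under it. Only 59 members reached a baseMean of 5, 30 reached 10 and 13 reached 20. A baseMean of 2 is a sum of 12 normalized counts over 6 libraries.

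The members just inside and just outside the minimum did not stand apart in level. Mir1960 (2.02), Mir195 (2.06), Mir1197 (2.10), Mir300 (2.13) and Mir125b-2 (2.14) were the lowest members by baseMean. Mir1900 (1.98), Mir690 (1.97), Mir2137 (1.97), Mir1936 (1.94) and Mir143 (1.92) were the highest symbols left out.

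The 10 highest members held 38.0% of the members' summed baseMean, and the first 3 held 17.7%. Mir204 was the highest microRNA gene of the tissue, with a baseMean of 72.5. Mir27b followed at 68.7 and Mirlet7d at 62.4. These 3 were the only members above 50.

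Below them came a mixed group of intronic and exonic hairpins. Mir706, in an intron of the kinase gene Wnk1, had a baseMean of 48.2. Mirlet7c-1 (40.7) and Mir99a (34.8) lie side by side in an intron of the non-coding Mir99ahg. Mir23b (32.9) is the neighbour of Mir27b, and Mir186 (27.1) lies in an intron of the splicing factor gene Zranb2.

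Mirlet7a-1 (26.4) and Mir7-1 (24.1), the latter in an intron of the RNA-binding protein gene Hnrnpk, closed the 10 highest. The next 15 by baseMean were Mirlet7b (22.6), Mir155 (21.3), Mir466i (20.2), Mir1898 (19.3), Mir1b (17.0), Mir145 (16.7), Mir30a (16.4), Mir30c-2 (15.9), Mir133a-1 (14.2), Mir181b-2 (12.8), Mir1192 (12.2), Mir30b (12.1), Mir24-2 (12.0), Mir211 (12.0) and Mir133a-2 (11.5). They include microRNAs best known from immune cells, striated muscle and smooth muscle, beside those of the pigment epithelium.

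**Figure D1:**
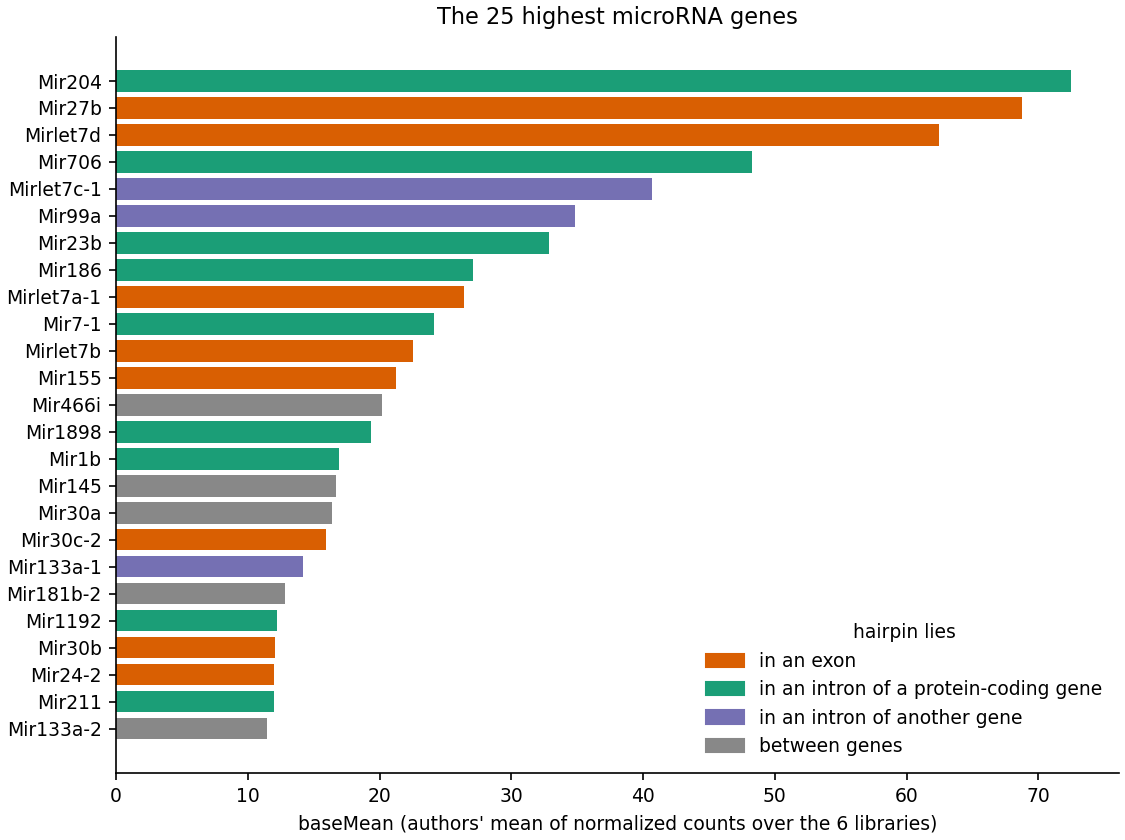
BaseMean (the authors' mean of normalized counts over the 6 libraries, no error available) of the 25 highest microRNA genes, coloured by where the hairpin lies in the annotation. Mir204, Mir27b and Mirlet7d stood above 50, and the 25th gene, Mir133a-2, was at 11.5.

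The pair miR-204/miR-211 held 7.33% of the members' summed baseMean. Mir204 was 6.05 times as high as Mir211 by baseMean (72.5 against 12.0). Per 100 bases of hairpin the levels were 107 for Mir204 (68 bases) and 11.3 for Mir211 (106 bases), a ratio of 9.44. Over 126 members hairpin length and baseMean were nearly unrelated (Spearman rank correlation 0.0178). The larger ratio per base thus rests on a length division that the members' levels did not follow. The genes that hold them had the reverse order per base. Trpm3 had a baseMean of 13730 and Trpm1 one of 9212, which is 56.2 and 62.5 per 100 exonic bases, a ratio of 0.899.

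The tissue carried the markers its label names. All 8 pigment epithelium markers, among them visual cycle genes, were detected, with a baseMean from 69.8 (Best1) to 99322 (Ttr) and Rpe65 at 43745. The 6 melanocyte markers, which pigment epithelium partly shares, ran from 4852 to 89145. RNA of other cells was present too, with the rod markers Rcvrn at 2159 and Gnat1 at 12334, endothelial markers from 1025 to 6377 and macrophage markers from 1224 to 4063.

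The let-7 family had the highest summed baseMean of the 20 lists. It had 9 symbols in the table and 8 of them were members, which summed to a baseMean of 177, or 15.3% of all members together. Within the family the level ran from 62.4 for Mirlet7d to 4.23 for Mir98, and Mirlet7f-2 fell short of the minimum at 0.707. Sharing was judged on GENCODE M21, a later annotation than the authors'. Of the 8 members 5, Mirlet7d among them, had no stretch of 31 bases that no other gene in it shares. The genes around these 5 hairpins were not found among the measured symbols, so whether the authors' annotation held them is unknown. The 3 members with all stretches unshared summed to 50.2. That is below the 84.4 of the miR-204/miR-211 pair, whose hairpins are unshared throughout. Mirlet7c-1 and Mirlet7c-2 give the same mature strand, let-7c-5p, from chromosomes 16 and 15, with baseMean values of 40.7 and 9.67.

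Lin28a and Lin28b, which block let-7 maturation in stem cells, were low, at 13.4 and 12.1 by baseMean and 0.335 and 0.134 per 100 exonic bases. All 23 processing genes of the list were in the table. Drosha (16.5 per 100 exonic bases) and its partner Dgcr8 (9.20), the export factor Xpo5 (17.1) and Dicer1 (10.1) lay between 9.20 and 17.1 on this scale. Among the Argonautes Ago2, which alone of the 4 can cut its target well, was the highest at 17.6, followed by Ago1 (12.7), Ago3 (9.99) and Ago4 (7.36). The scaffold genes Tnrc6a, Tnrc6b and Tnrc6c lay between 14.2 and 15.7. Over the 21 genes with an exon length the median was 15.5 per 100 exonic bases, and Ddx5, a helicase with many other roles, was far above it at 305.

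The miR-23/27/24 family, found in clusters on chromosomes 13 and 8 and known from blood vessels among other tissues, had 5 symbols, all members, with a summed baseMean of 129 (11.2%). The chromosome 13 copies were the higher in both pairs. Mir27b exceeded Mir27a (3.98) 17.3 times by baseMean, and Mir23b exceeded Mir23a (11.2) 2.93 times. Mir27b lies wholly in an exon of the protein-coding 2010111I01Rik, so its reads cannot be told apart from those of that transcript. Mir23b lies in an intron of it.

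The miR-30 family was complete, with 6 of 6 symbols above the minimum and a sum of 64.4 (5.58%). Mir30a (16.4) and Mir30c-2 (15.9) on chromosome 1 were the highest, Mir30b (12.1), Mir30e (9.27) and Mir30c-1 (6.60) followed, and Mir30d was lowest at 4.12. The miR-181 family had 3 of 6 symbols among the members, with Mir181b-2 (12.8) above Mir181a-2 (5.81) and Mir181b-1 (3.43). The miR-15/16 family had 3 of 5, none above 2.86.

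**Figure D2:**
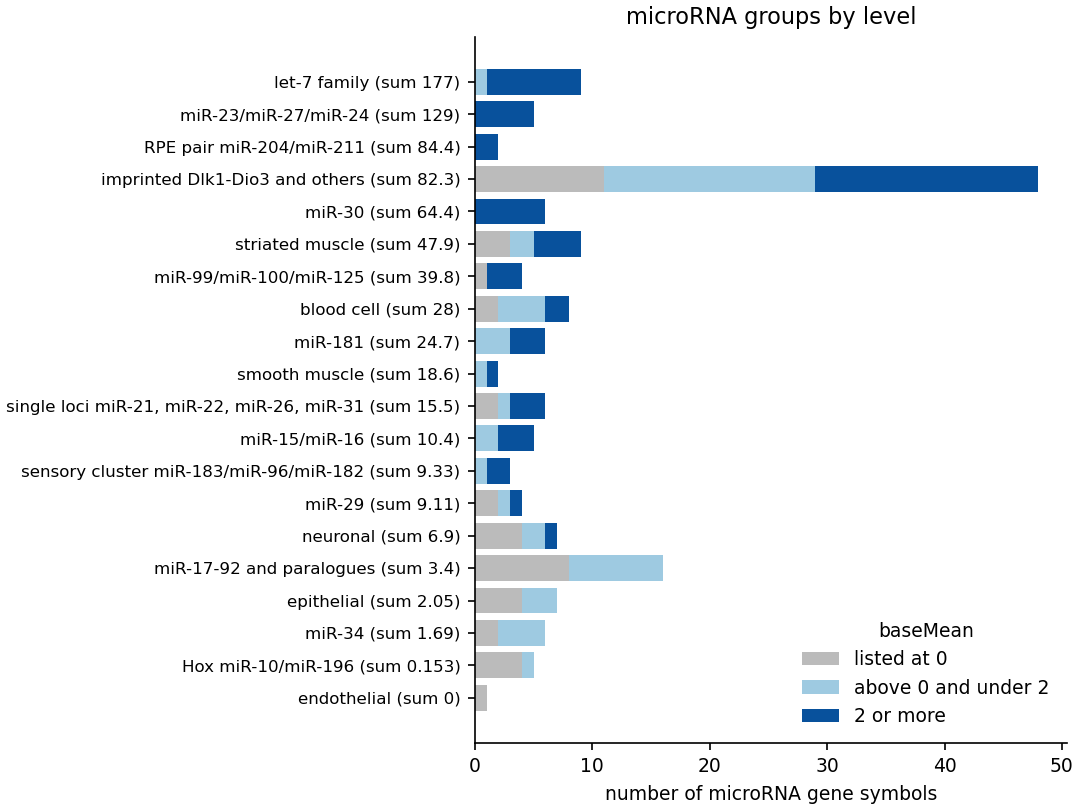
Number of microRNA gene symbols in each of 20 families or cell-type groups (horizontal axis), split into those listed at 0, above 0 and under 2, and at 2 or more, and ordered by the summed baseMean given beside each name. The let-7 family had the highest sum (177) with 8 of 9 symbols at 2 or more, and the miR-17-92 group had 0 of 16.

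MicroRNAs known from single cell types were spread unevenly over the list. Of the sensory cluster miR-183/miR-96/miR-182, known from photoreceptors, Mir96 (4.23) and Mir182 (3.74) were members and Mir183 (1.36) was not. Of 7 neuronal symbols, Mir128-1 (4.93) was the only member. Mir124a-3, of the family best known from neurons, was at 1.80 and Mir124a-1 was listed at 0. Rod markers were present beside these values, as given above, and their part in them was not tested.

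Striated muscle microRNAs ran from 0 to 17.0 by baseMean. Mir1b (17.0), Mir133a-1 (14.2), Mir133a-2 (11.5) and Mir1a-1 (4.22) were members, 4 of 9 on that list. Mir133b (0.899) and Mir208a (0.167) were under the minimum, and Mir206, Mir208b and Mir499 were listed at 0. Mir1b lies in an intron of Mib1 (8413), and 54.3% of its 31-base words occur in no other gene. The 5 skeletal muscle markers, contractile and energy genes, were all detected and ran from 11414 (Tnnt3) to 51830 (Myh4) by baseMean. Muscle had been trimmed from the eyes, and the part of muscle RNA in these microRNA values was not tested.

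Mir145, known from smooth muscle, had a baseMean of 16.7, and Mir143, its neighbour on chromosome 18, had 1.92, a ratio of 8.70. The smooth muscle markers ran from 106 (Cnn1) to 3453 (Acta2). Of 8 blood cell symbols, Mir155 (21.3), which is made in activated immune cells, and Mir142 (3.04), found across blood lineages, were members, and Mir144 and Mir223 were listed at 0. Mir511 (3.20) lies in an intron of Mrc1, the mannose receptor of tissue macrophages, whose baseMean was 2905.

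Several well-known microRNAs were listed at 0, among them Mir126, Mir21, Mir22 and the Mir17 hairpin. None of the 16 symbols of the miR-17-92 cluster and its paralogues reached the minimum, and 8 were at 0. No member came from the 7 epithelial, 6 miR-34 or 5 Hox-linked miR-10/miR-196 symbols. A 0 in this table is a pooled estimate, and it is set beside the position of the hairpin below.

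The hairpins were placed on the GENCODE M21 annotation of GRCm38, where 126 of the 127 members and 520 of the 529 symbols had a position (Mir1957, at 9.65, had none). Member hairpins were 54 to 122 bases long with a median of 88. Of 126, 29 were 100 bases or longer, the length of a single read in this study.

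Most microRNA genes sat inside another gene. Of 126 members, 89 (70.6%) lay in another annotated gene on the same strand, and 54 of 126 (42.9%) lay in a protein-coding gene. The share was 66.5% for microRNA symbols of the table that were not members and 55.1% for all 2207 annotated microRNA genes. In a protein-coding gene the shares were 42.9%, 52.0% and 44.4% in that order.

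By place, 48 members lay in introns of protein-coding genes, 15 in introns of other genes, 26 touched an exon of another gene and 37 lay between genes. The median level per 100 bases was 5.43, 4.57, 7.27 and 4.57 in that order. Mir204 was the highest of the intronic hairpins in protein-coding genes, Mirlet7c-1 of those in other introns, Mir27b of the exonic ones and Mir466i (20.2) of those between genes.

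For 47 members in introns of protein-coding genes the host was also measured, over 46 hosts. Their level per 100 bases was a median of 0.282 times the host's level per 100 exonic bases. Of these hairpins 9 of 47 were at or above their host, and 5 were below 0.1 of it. Mir204 stood at 1.90 times Trpm3, Mir706 at 1.83 times Wnk1 and Mir23b at 3.10 times 2010111I01Rik. At the other end Mir340 was at 0.0244 times Rnf130 and Mir1933 at 0.0319 times Ugp2.

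Mir211, by contrast with Mir204, was at 0.181 times Trpm1, a ratio like that of Mir1b to Mib1 (0.181) and Mir1192 to Klf9 (0.179). The minimum of 2 on the hairpin's own baseMean chose these genes, so a low host could enter only with a high ratio, as Mir297-2 did at 3.99 times Sfmbt2, and these ratios describe the members alone. Host exons were merged over all transcripts, which lowers a host's level per base where few of them are used. The ratios also rest on division by hairpin length, which members' baseMean did not follow (Spearman rank correlation 0.0178), and this raises the shortest hairpins most.

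**Figure D3:**
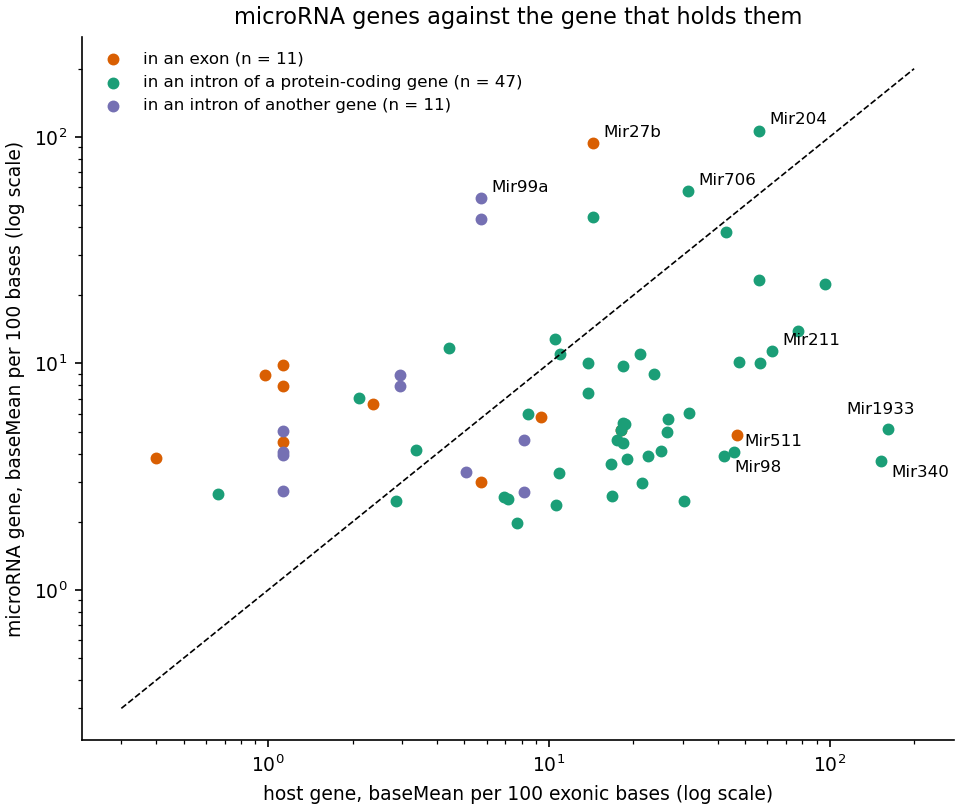
Level of each microRNA gene (vertical axis, baseMean per 100 bases of hairpin, log scale) against the gene that holds it (horizontal axis, baseMean per 100 exonic bases, log scale), each point 1 of 69 members with a measured host and the dashed line equality. Mir204 lay above the line and Mir211 below it although Trpm3 and Trpm1 were close, and 9 of the 47 intronic hairpins in protein-coding genes were on or above the line.

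The share of members among intronic symbols went with the level of the host. This was read over 137 symbols in introns of 115 protein-coding hosts whose hairpin sequence occurs in no other gene. Where the host's baseMean was under 100, 0 of 37 were members (exact 95% binomial interval 0 to 9.49%). With hosts from 100 to under 1000, 14 of 54 were (25.9%, interval 15.0 to 39.7%). With hosts of 1000 and over, 27 of 46 were (58.7%, interval 43.2 to 73.0%). The share listed at 0 went from 48.6% through 16.7% to 6.52% in the same order. The intervals cover counting error over symbols only, and some symbols share a host.

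Where a hairpin had no sequence of its own, it was often listed at 0. Each hairpin was read as overlapping words of 31 bases. A word was its own if no GENCODE M21 transcript of another gene held it on either strand. The authors used an earlier annotation, which may lack some of these transcripts. Of 300 symbols with only own words, 80 were at 0 (26.7%, interval 21.7 to 32.1%) and 90 were members (30.0%). Of 140 symbols with no own word, 96 were at 0 (68.6%, interval 60.2 to 76.1%) and 23 were members (16.4%). The 80 symbols with some own words lay near the first group in zeros (28.8%) and near the second in members (16.2%). These intervals too cover counting error over symbols only, and many symbols share a locus, such as the 68 of the Sfmbt2 cluster. The level of the host was not held equal between the groups, so its part in these shares was not tested.

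Of the 204 symbols at 0, 96 had no own word, and of the 44 at 0 on the 20 lists of families and cell types 29 had none. Of the 204, 68 touched an exon of another gene and 58 of these had no own word. The exon's gene was among the symbols of the profile for 61 of the 68. Mir126 lies wholly in an exon of Egfl7, an endothelial gene with a baseMean of 2672, and Mir21 in an exon of Vmp1, at 1527. All 8 symbols at 0 in the miR-17-92 group had no own word. Mir17, Mir18, Mir19a, Mir19b-1, Mir20a and Mir92-1 lie in exons of Mir17hg, which was measured at 116. Mir25 and Mir93 lie in exons of Mcm7, at 348. Mir675 lies in H19 (2009) and Mir29b-2 and Mir29c in A330023F24Rik (956).

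Other zeros had own sequence throughout. Mir10a, Mir200c, Mir208b and Mir499 were at 0 with all words their own, and Mir184, known from lens and cornea, was at 0.180 with all words its own. Among members, 90 had only own words, 13 some and 23 none. The members with no own word had a median baseMean of 5.65 and those with only own words 4.15. Mir27b, Mirlet7d, Mirlet7a-1, Mirlet7b, Mir155 and Mir30c-2 were the highest without an own word. The gene around Mir27b was measured (2010111I01Rik, 1618), but those around the others were not found among the measured symbols. How reads were divided between hairpin and surrounding transcript was not tested.

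**Figure D4:**
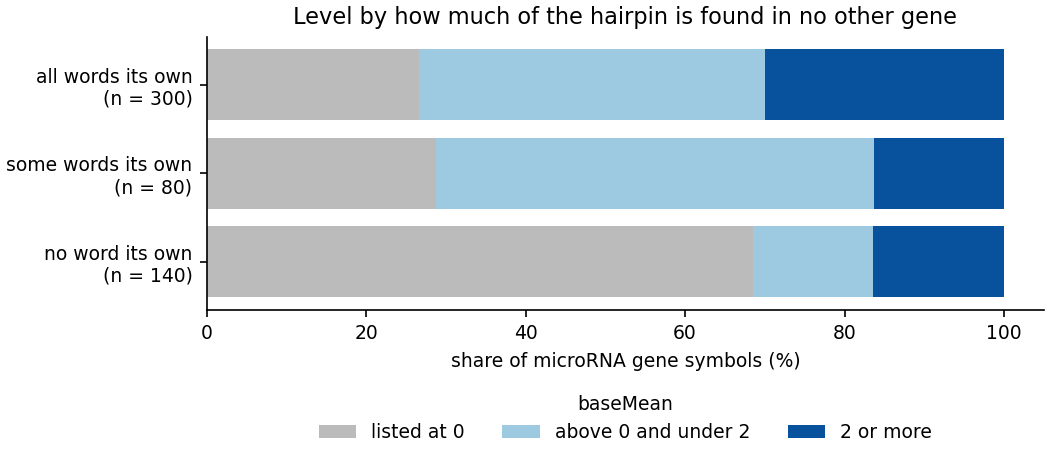
Share of microRNA gene symbols (horizontal axis, percent) listed at 0, above 0 and under 2, or at a baseMean of 2 or more, for hairpins with all, some or none of their 31-base words found in no other gene (n = 300, 80 and 140 symbols). The share at 0 was 26.7%, 28.8% and 68.6%.

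Clustered hairpins, here those with a neighbour on the same strand within 10 kb, made up 61 of the 126 placed members (48.4%). The share was 53.0% for the microRNA symbols of the table that were not members and 21.8% over all annotated microRNA genes. The members fell in 30 clusters, 16 of which held 2 or more members.

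Hairpins of a cluster can be cut from a shared transcript, yet their levels differed. In 11 clusters with exactly 2 symbols, both members, the ratio of the higher to the lower baseMean ran from 1.11 (Mir374 and Mir421 in Ftx, 7.55 and 6.78) to 2.94 (Mir30b and Mir30d), and 5 of the 11 were under 2. Among these pairs, both hairpins had only own words just in Mir599 with Mir875 and in Mir99a with Mirlet7c-1. Mir599 and Mir875 differed 1.30-fold (2.43 and 3.16). Mir99a and Mirlet7c-1 differed 1.17-fold (34.8 and 40.7). Mir125b-2, further along the same non-coding gene Mir99ahg, was at 2.14, and Mir99a was 16.3 times as high.

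In 7 further clusters of 2 symbols, 1 of them above 0 but under the minimum, the ratio ran from 1.52 to 12.3; here the minimum itself sorted the pairs on the values that form the ratio. On the X chromosome Mir221 was at 10.6 and its neighbour Mir222 at 1.29, a ratio of 8.19. On chromosome 6 Mir29a was at 8.42 and Mir29b-1 at 0.687, a ratio of 12.3. Mir351 (9.25) was the only member among 7 symbols of its X chromosome cluster.

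Chromosome 12 held 22 members, more than any of the other 19 chromosomes with a member, although their summed baseMean was 75.8, against 235 for the 6 members of chromosome 13. Most belonged to the imprinted Dlk1-Dio3 region, whose microRNAs are transcribed from the maternal copy together with the non-coding genes Meg3, Rian and Mirg. The largest cluster of that region ran over chr12:109709060-109743795 on the plus strand with 31 symbols, of which 15 were members and 3 were at 0.

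The levels within that cluster were uneven. Mir382 (7.45) and Mir134 (5.65) were the highest, followed by Mir496 (3.99), Mir666 (3.36), Mir485 (3.29) and Mir453 (3.23). The other 9 members lay between 2.10 (Mir1197) and 2.84 (Mir758), and the 3 at 0 were Mir377, Mir369 and Mir410. Mirg, the non-coding gene that holds Mir382, Mir134, Mir485, Mir453, Mir154, Mir496 and Mir541 among others, was at 82.1 by baseMean and 1.13 per 100 exonic bases. Mir382, Mir134 and Mir485 overlap its exons, and on that scale they stood at 9.81, 7.95 and 4.51.

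**Figure D5:**
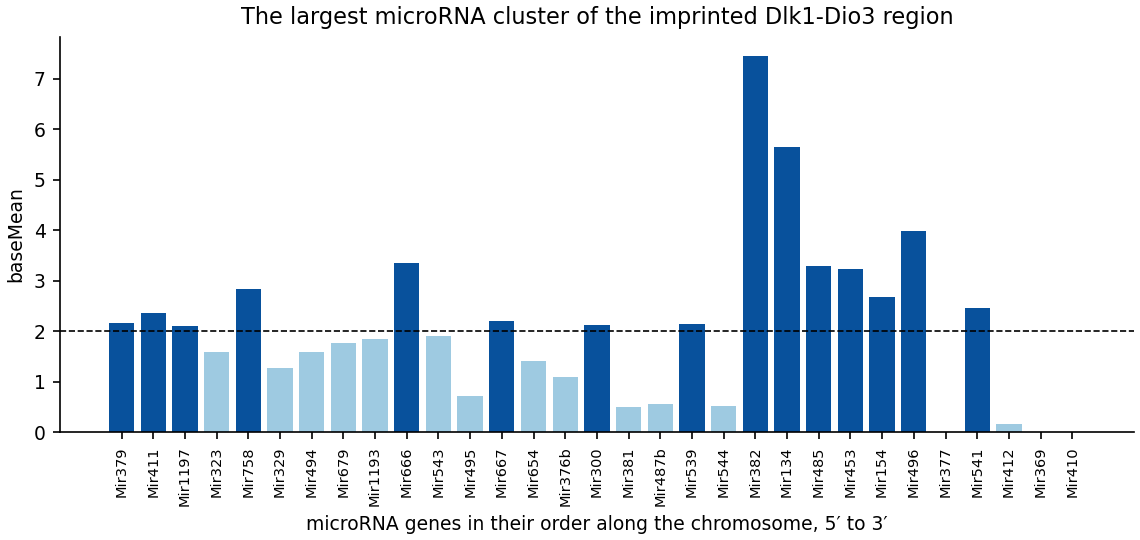
BaseMean of the 31 microRNA genes in the largest Dlk1-Dio3 cluster, in their order along the plus strand, with the dashed line at the minimum of 2 and members in dark blue. Mir382 (7.45) and Mir134 (5.65) were highest, and Mir377, Mir369 and Mir410 were at 0.

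Of the 48 symbols on the imprinted list 19 were members, with a median of 2.58. Mir335 (9.59), in an intron of the imprinted Mest (724), was the highest of the 19 and the only member of that list outside the Dlk1-Dio3 region. The cluster in the Sfmbt2 gene on chromosome 2 had 68 symbols in the table and 1 member, Mir297-2 (2.38), while 25 were at 0. Sfmbt2, a Polycomb protein gene, was itself low at 60.7.

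Seeds were taken for the 101 members with a mature sequence in RefSeq. They gave 152 different seeds, of which 19 were shared by 2 or more member genes, covering 35 genes. By summed baseMean of the genes that carry it, the let-7 seed GAGGUAG was first (177 over 8 genes), then UCCCUUU of Mir204 and Mir211 (84.4) and UCACAGU of Mir27b and Mir27a (72.7). The seed GUAAACA stood at 52.2 over 5 genes and ACAUUCA of miR-181 at 22.1 over 3, with other seeds between them in level. Mir30b and Mir30d had no mature sequence in that table and are in none of these sums, so a seed's sum covers the matched genes alone.

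Small nucleolar RNA genes, which are also short and mostly intronic, gave a reference for the levels. Of 109 such symbols, 64 (58.7%) reached a baseMean of 2 and 32.1% were at 0. Their median per 100 bases was 11.0, against 5.06 for the microRNA genes and 9.29 for the 14952 protein-coding genes past the same minimum. Long non-coding RNA genes past it lay lower on this scale, with a median of 0.910 over 1677 genes. The highest gene counted in the small nucleolar class was Scarna10, by its name a small Cajal body RNA, at 5925 by baseMean. Median lengths were 88 bases for the microRNA genes, 101.5 for small nucleolar, 1579 for long non-coding and 4249 for protein-coding genes. The same minimum on baseMean therefore lets longer genes in at lower levels per base, so medians of classes unlike in length are not comparable. No test was made of these differences, since the minimum had chosen the genes on the same values.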

How the data were processed

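RPE/choroid total RNA of 6 C57BL/6J mice (3 young, 3 aged; 2 eyes per sample) was profiled. Per the study's methods and the labels, the authors removed ribosomal RNA, made stranded total RNA libraries, sequenced 100-base read pairs, trimmed them with BBDuk, aligned with STAR to Ensembl release 82 transcripts (GRCm38), estimated abundances with Sailfish 0.9.0 and scaled them by total count. How reads matching several genes were divided is not given in the sources used here. Labels and methods differ on the young age and on sex.

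The deposited baseMean values, a normalized count signal, are the authors' mean over all 6 libraries from DESeq2, with no error or depth. The table's other columns hold the authors' young against aged comparison (fold change, its error, statistic, p-value and adjusted p-value) and were not used. 0 columns hold a single sample, so the planned edgeR test of young against aged was not run.

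Symbols were matched to GENCODE M21 (GRCm38, a later release than the authors') and to RefSeq GRCm38.p6 by symbol or synonym. Levels per 100 bases are the baseMean divided by hairpin length or merged exon length. Words of 31 bases were compared with all GENCODE transcripts on both strands. Interval routines were tested on simulated data (Python 3.11, pandas, scipy). Named genes were the 25 highest, the 5 nearest the minimum on each side, listed family members, their hosts and the processing genes; other names were chosen after their values were seen. The members and lists were chosen with earlier results of these data known. No small nuclear RNA symbol was matched (0), so that planned comparison is not given. Lens markers ran from 535 to 1973 and the 3 listed erythroid markers of 5 from 29.0 to 2316.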

Additional observations from a re-analysis of the deposited data

How the results depend on the processing

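No paired analysis was possible because a single pooled mean per gene was used, and for the same reason leaving out replicates and a replicate block were not run. The number of microRNA genes was 59 at a minimum of 5, 30 at a minimum of 10 and 325 with every symbol above 0. The share inside another gene was 42.9% with protein-coding hosts alone and stayed between 69.5% and 77.8% under the other alternatives tried (either strand, minimum of 10, no minimum). The share touching an exon was 30.0% at a minimum of 10 and 14.3% for hairpins wholly in an exon. The median per 100 bases was 21.6 at a minimum of 10, which keeps only higher genes. The clustered share lay between 46.0% and 54.0%, and the 10 highest members held 41.2% without exonic hairpins. With baseMean values near 2, that is 12 normalized counts over 6 libraries, membership and ratios between low genes are set by few reads, and no interval could be given for a level.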
